A study of Mus musculus with 55 samples.

Results

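Angptl4, Lpl, Gpihbp1, Lmf1 and Vldlr encode proteins that control how plasma triglyceride is split and taken up at the capillary wall. Their mRNA was followed in mouse hearts after a single gavage of oil or of a drug. The 5 genes were taken by symbol, out of 18193 that the array measures with at least 1 unshared probe set. They have 13 of the 45101 probe sets on the array, and each gene is represented by its brightest one, by the mean of the 55 arrays. All 5 were bright enough to be tested, among 8237 genes with a linear signal above 20 on 3 or more arrays.

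The study measured 55 hearts of male Sv129 mice with 1 Affymetrix mouse genome array per heart. Wild-type mice (WT, 25 arrays) were of the substrain 129S1/SvImJ, and PPARα-/- mice (KO, 30 arrays) of the substrain 129S4/SvJae. Genotype and substrain therefore cannot be told apart in any difference between WT and KO. All mice had eaten a modified AIN76A diet with olive oil in place of corn oil for a run-in period. The labels give their age as 9 to 12 weeks in one field and 2 to 6 months in another. Each mouse was fasted for 4 h, received 400 µL by gavage and was killed 6 h later. There were 4 groups of each genotype that received a pure triglyceride: triolein, trilinolein, trilinolenin or tridocosahexaenoin. These are the triglycerides of oleic, linoleic and linolenic acid, which share a chain length and differ in double bonds, and of docosahexaenoic acid, which is longer and more unsaturated. A further group received the PPARα agonist Wy14643, given at 10 mg/mL in 0.5% carboxymethyl cellulose. Control mice received that cellulose vehicle alone per the treatment protocol, while another field of their labels reads none. The oils carried no vehicle in that protocol. In WT mice there were 3 hearts after control gavage, 4 each after triolein, trilinolenin and Wy14643, and 5 each after trilinolein and tridocosahexaenoin. Each of the 6 KO groups held 5. By the labels no 2 arrays share a heart, so the p-values rest on the spread among animals.

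Lipoprotein lipase, the product of Lpl, releases fatty acids from the triglyceride of chylomicrons and very low density lipoproteins, and the heart is among the tissues that make most use of it. The enzyme is folded with the help of Lmf1 in the endoplasmic reticulum of muscle cells and fat cells. Gpihbp1 carries it across the capillary endothelium and holds it on the luminal face, Angptl4 inactivates it, and Vldlr binds triglyceride-rich particles beside it. Angptl4 is a well known target gene of the PPAR family of fatty acid sensors, to which PPARα belongs.

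Levels are log2 signals of the main probe set, and differences are log2 differences ± their standard error (SE). Each comparison was a contrast in 1 limma model of all 55 arrays, and its p-values were adjusted over the 8237 tested genes (Benjamini-Hochberg). Called means an adjusted p under 0.05. The lowest probe set signal in a member's main probe set was 4.84 (Lmf1), above the brightness minimum of 4.322. Probe sets differ in brightness for reasons other than transcript number, so no gene's level is set against another's. Whole hearts were measured, so fewer cells of a type and less RNA per cell cannot be told apart.

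Over 35 comparisons, Angptl4 was called in 10, Gpihbp1 in 7 and Vldlr in 4. Lpl and Lmf1 were called in 0 of 35. The share of all tested genes called in a comparison ran from 0% to 11.9%, and from 3.62% to 9.63% between genotypes. The comparisons share arrays, so the counts are not counts of independent results. Angptl4 rose after 3 oils and Wy14643 in WT hearts, after trilinolenin in KO hearts, and over the mean of the oils in both. It was higher in KO than in WT hearts under tridocosahexaenoin, and differed in 2 oil pairs in WT hearts. Gpihbp1 rose after 3 oils and over their mean with triolein in KO hearts, and was higher in KO than in WT hearts under 3 gavages. All 4 calls of Vldlr were between genotypes. For no member was a gavage response called different between genotypes. The array medians lay between 2.55 and 2.61, and pairs of arrays correlated at 0.988 to 0.996 over all probe sets. Ppara was called lower in KO than in WT hearts under all 6 gavages, with differences from -0.50 (trilinolenin) to -1.09 (tridocosahexaenoin). Whether its probe set lies in the part of the gene that the mutation removes was not looked up here. Actb probe sets at the 3′ and 5′ ends, a sign of RNA integrity, differed by 0.701 to 0.866 in WT control arrays. In WT arrays given an oil that difference spanned 0.474 to 0.794, and over all KO arrays 0.646 to 0.995. The part of RNA integrity in the results was not tested.

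Angptl4, the inhibitor of lipoprotein lipase, had its lowest group mean in WT control hearts, which read 6.25, 6.46 and 5.30. After triolein the WT hearts read 8.02, 7.85, 9.46 and 7.95, and after trilinolein 8.07, 7.21, 9.13, 8.36 and 8.10. Trilinolenin gave 7.03, 7.41, 9.05 and 7.57 in WT hearts. Every WT heart given one of these oils lay above all 3 control hearts. The rise was 2.32 ± 0.46 after triolein (4.98-fold, adjusted p = 0.0245), where 0.0728% of tested genes were called. After trilinolein it was 2.17 ± 0.44 (4.49-fold, adjusted p = 0.00743), against 1.25% of genes called. Trilinolenin raised Angptl4 by 1.76 ± 0.46 (3.39-fold, adjusted p = 0.0239), with 3.41% of genes called. The 3 differences share the same control hearts. Without WT control replicate 3, the lowest of them, none of the 3 was called (adjusted p = 0.32, 0.0956 and 0.162, with rises of 1.96, 1.81 and 1.41).

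For Angptl4 the triolein call was also lost without WT control replicate 1 (adjusted p = 0.0955), without triolein replicate 3 (1.94, adjusted p = 0.182) and without triolein replicate 4 (adjusted p = 0.0546). The trilinolenin call was also lost without WT control replicate 2 (adjusted p = 0.0642) and without trilinolenin replicate 3 (1.33, adjusted p = 0.126). When only the groups compared were fitted, the trilinolein rise was still called (adjusted p = 0.0485), and those of triolein and trilinolenin were not (adjusted p = 0.16 and 0.11).

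Tridocosahexaenoin gave another picture for Angptl4 in WT hearts. Its 5 hearts read 7.42, 5.80, 6.11, 5.11 and 7.07, a range that contains all control hearts. The difference from control was 0.30 ± 0.44 (adjusted p = 0.825, 95% interval -0.60 to 1.19), with 1.86% of genes called. Without WT control replicate 3 the estimate turned to -0.06.

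Wy14643 in WT hearts gave Angptl4 levels of 8.76, 8.17, 7.75 and 8.03, all above the 3 control hearts. The rise of 2.17 ± 0.46 (4.51-fold, adjusted p = 0.0409) was close to the threshold, and 0.0607% of tested genes were called. It was lost without WT control replicate 1 or 3, without Wy14643 replicate 1, 2 or 4 (adjusted p from 0.0729 to 0.243 over these 5 fits), and when only the groups compared were fitted (adjusted p = 0.128). Acot1, an acyl-CoA thioesterase gene responsive to PPARα, rose in the same hearts by 1.93 ± 0.36 (adjusted p = 0.0122). Ucp3, a mitochondrial carrier, differed by 1.36 ± 0.32 (adjusted p = 0.0702), and Pdk4, a kinase that inhibits pyruvate dehydrogenase, by 0.87 ± 0.25 (adjusted p = 0.219).

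**Figure D1:**
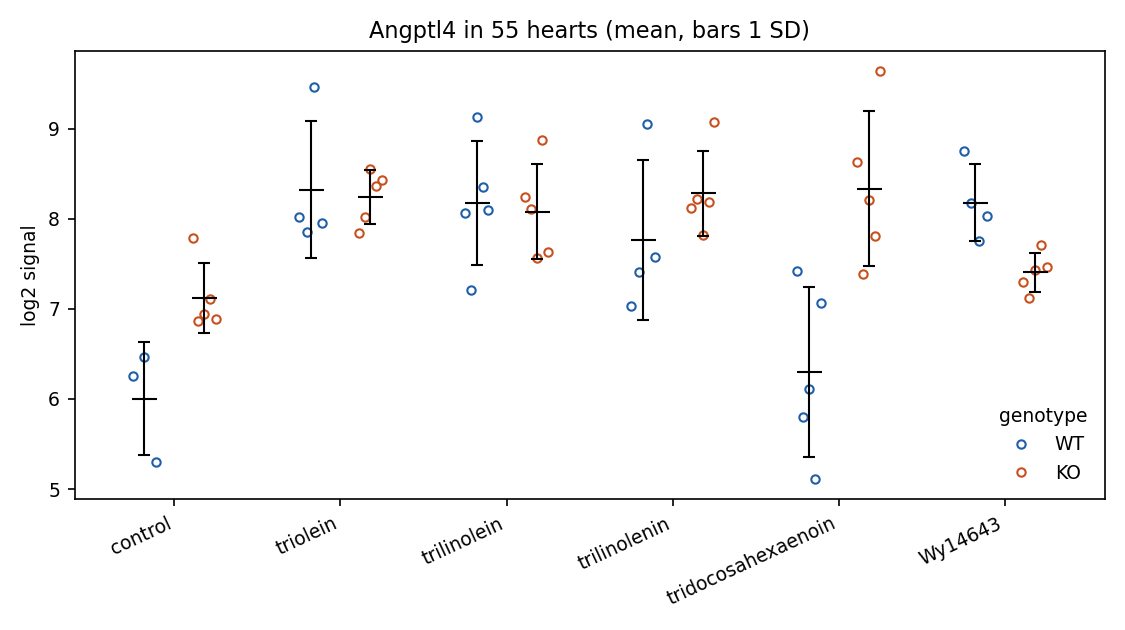
Angptl4 log2 signal (vertical axis) in each of the 55 hearts, by gavage (horizontal axis) and genotype (blue WT, orange KO). Open circles are hearts, the long dash is the group mean and the bars are 1 SD. WT hearts given tridocosahexaenoin (5.11 to 7.42) overlap the WT controls (5.30 to 6.46), while KO hearts given the same oil lie between 7.38 and 9.64.

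KO control hearts read 7.79, 6.87, 6.94, 7.11 and 6.89 for Angptl4, all above the 3 WT control hearts. The difference between the control groups was 1.12 ± 0.44 (adjusted p = 0.211, 95% interval 0.22 to 2.01), which was not called, and 3.62% of genes were.

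Among KO hearts, triolein gave 7.85, 8.02, 8.56, 8.36 and 8.43, and trilinolein 8.24, 8.10, 7.56, 8.87 and 7.63. Trilinolenin gave 8.12, 8.22, 7.82, 8.19 and 9.08, and tridocosahexaenoin 8.63, 7.38, 8.21, 7.81 and 9.64. All hearts given triolein or trilinolenin lay above every KO control, as did 3 of 5 given trilinolein and 4 of 5 given tridocosahexaenoin. The trilinolenin rise of 1.16 ± 0.38 (2.24-fold, adjusted p = 0.0384) was called, against 11.9% of genes. It was lost in 7 of the 10 fits that left out 1 of its arrays, at adjusted p up to 0.135. Triolein differed from control by 1.12 ± 0.38 (adjusted p = 0.137, 1.15% of genes called) and trilinolein by 0.96 ± 0.38 (adjusted p = 0.162, 4.32% called). Tridocosahexaenoin differed by 1.22 ± 0.38 (adjusted p = 0.0656, 3.54% called), and this was called without its replicate 2 or 4 (adjusted p = 0.0352 and 0.0391). The triolein difference was called when only its own groups were fitted (adjusted p = 0.0449).

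Averaged over the 4 oils, Angptl4 rose by 1.12 ± 0.30 in KO hearts (2.17-fold, adjusted p = 0.0129, 9.8% of genes called). In WT hearts the same average rose by 1.64 ± 0.38 (3.11-fold, adjusted p = 0.0222, 1.2% called). The KO call was lost without KO control replicate 3 (adjusted p = 0.054), and the WT call without any 1 of the 3 WT controls (adjusted p = 0.0634, 0.0752 and 0.178). The difference between the genotypes in this average, a comparison added after the values were seen, was -0.52 ± 0.49 (adjusted p = 0.997, 95% interval -1.50 to 0.46). The interval includes both no difference and a response of KO hearts that is smaller by more than 1 log2 unit.

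Wy14643 gave 7.30, 7.12, 7.43, 7.71 and 7.47 in KO hearts, and none lay above the highest KO control. The difference from control was 0.29 ± 0.38 (adjusted p = 0.865, 95% interval -0.49 to 1.06), with 0.0728% of genes called. All 5 of these hearts lay below the 4 WT hearts given Wy14643. The difference between the genotypes under Wy14643 was -0.77 ± 0.41 (adjusted p = 0.259, 9.28% of genes called). With only those 2 groups fitted it was called (adjusted p = 0.031).

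Whether each gavage response of Angptl4 differed between genotypes was tested directly, and none of the 5 tests was called. The Wy14643 response was lower in KO hearts by an estimate of -1.89 ± 0.60 (unadjusted p = 0.00299, adjusted p = 0.794, 95% interval -3.10 to -0.68). For triolein the estimate was -1.19 ± 0.60, for trilinolein -1.21 ± 0.59, for trilinolenin -0.60 ± 0.60 and for tridocosahexaenoin 0.92 ± 0.59. Across all 8237 genes limma called 0 in each of these 5 tests (0% of genes), with 255 to 399 genes at an unadjusted p under 0.05. With each gene's probe sets averaged, 2 genes were called for trilinolenin and 2 for Wy14643.

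Under tridocosahexaenoin Angptl4 was higher in KO than in WT hearts by 2.03 ± 0.38 (4.09-fold, adjusted p = 0.000182), where 9.57% of genes were called. Of the 5 KO hearts 4 lay above all 5 WT hearts, and the fifth, at 7.38, lay just below the highest WT heart at 7.42. The call held in each fit that left out 1 array, with differences of 1.71 to 2.31. Some markers of cell types were also called in this comparison. Of 10 endothelial markers 2 were higher in KO hearts, Kdr by 1.08 ± 0.20 (adjusted p = 0.000165) and the tight junction gene Cldn5 by 0.97 ± 0.31 (adjusted p = 0.0352), and the list median was 0.06 against 0.03 for all tested genes. Of 8 macrophage markers 3 were higher, Mrc1 (0.60 ± 0.10), C1qb (0.42 ± 0.12) and C1qa (0.39 ± 0.11), and 0 of 7 fibroblast markers were called. The summed linear signal of the endothelial markers was 2570 to 3140 in KO and 2390 to 2790 in WT hearts, and of the WT hearts 4 of 5 lay below all 3 WT controls (2570 to 2690). The macrophage sum was 1940 to 2600 in KO and 1900 to 2290 in WT hearts. The fibroblast sum was 6250 to 6670 in the 5 WT hearts, below all 3 WT controls (6680 to 6950), and 5760 to 6900 in the KO hearts. The part of these cell shares in the Angptl4 difference was not tested. Under the other oils the genotypes differed by -0.08 ± 0.41 (triolein), -0.09 ± 0.38 (trilinolein) and 0.52 ± 0.41 (trilinolenin), at adjusted p of 0.95, 0.927 and 0.497. The percentages of genes called there were 7.93, 9.63 and 9.54.

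The 4 oils, given at equal volume and time, were compared in 6 pairs within each genotype, 12 in all, with p adjusted over all tested genes. In WT hearts Angptl4 was lower after tridocosahexaenoin than after triolein by a difference of -2.02 ± 0.41 (adjusted p = 0.0104, 0.534% of genes called). All 5 tridocosahexaenoin hearts lay below the 4 triolein hearts. Against trilinolein the difference was -1.87 ± 0.38 (adjusted p = 0.00691, 0.765% called), with 4 of 5 hearts below all 5 trilinolein hearts. Against trilinolenin it was -1.46 ± 0.41 (adjusted p = 0.0829, 0.558% called), with 3 of 5 below. The triolein call was lost without triolein replicate 3 (adjusted p = 0.0764), and both calls were lost when only the groups compared were fitted (adjusted p = 0.232 and 0.128). The trilinolenin difference was called without tridocosahexaenoin replicate 1 (adjusted p = 0.0261).

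Among the 3 oils of equal chain length, WT Angptl4 differed by -0.15 (95% interval -0.97 to 0.67) for trilinolein against triolein. Trilinolenin differed by -0.56 (-1.42 to 0.31) from triolein and by -0.41 (-1.23 to 0.41) from trilinolein. None was called (0.0364%, 0.522% and 0% of genes in these 3 pairs), and the intervals allow differences of up to 1.42 log2 units. In KO hearts all 6 pairs lay between -0.16 and 0.25, none was called, and their intervals reached from -0.94 to 1.03. Between 0% and 1.01% of genes were called in these pairs, among them 0.413% for trilinolein, 1.01% for trilinolenin and 0.0121% for tridocosahexaenoin, each against triolein. Tridocosahexaenoin against trilinolein had 0.388% and against trilinolenin 0.328%.

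Tridocosahexaenoin was set against the mean of the other 3 oils after the values were seen. The Angptl4 difference was -1.78 ± 0.32 in WT hearts (adjusted p = 0.00125, 1.12% of genes called) and 0.13 ± 0.31 in KO hearts (adjusted p = 0.943, 0.0243% called). These 2 values differed by 1.92 ± 0.45 (unadjusted p = 9.38e-05, adjusted p = 0.154), which was not called, with 0% of genes called. Without KO tridocosahexaenoin replicate 2 it was (adjusted p = 0.03).

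In order of the group means, Angptl4 ran from 8.34 in KO tridocosahexaenoin hearts down to 6.01 in WT control hearts, a span of 2.33. Of the 11 neighbouring pairs in this order 0 were called apart (lowest adjusted p 0.133), and the values of every neighbouring pair overlapped. The same held for the 11 neighbouring pairs of Lpl, Gpihbp1, Lmf1 and Vldlr, in the 40 different pairs of groups that these orders hold. Between 0% and 19.8% of genes were called in those pairs. Averaged over the 6 gavages, a comparison added after the values were seen, Angptl4 was higher in KO than in WT hearts by 0.45 ± 0.17 (adjusted p = 0.0259), where 39% of genes were called. The second Angptl4 probe set never reached the brightness minimum, at 1.13 to 2.17 over the 55 arrays, and gives no check of the first.

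**Figure D2:**
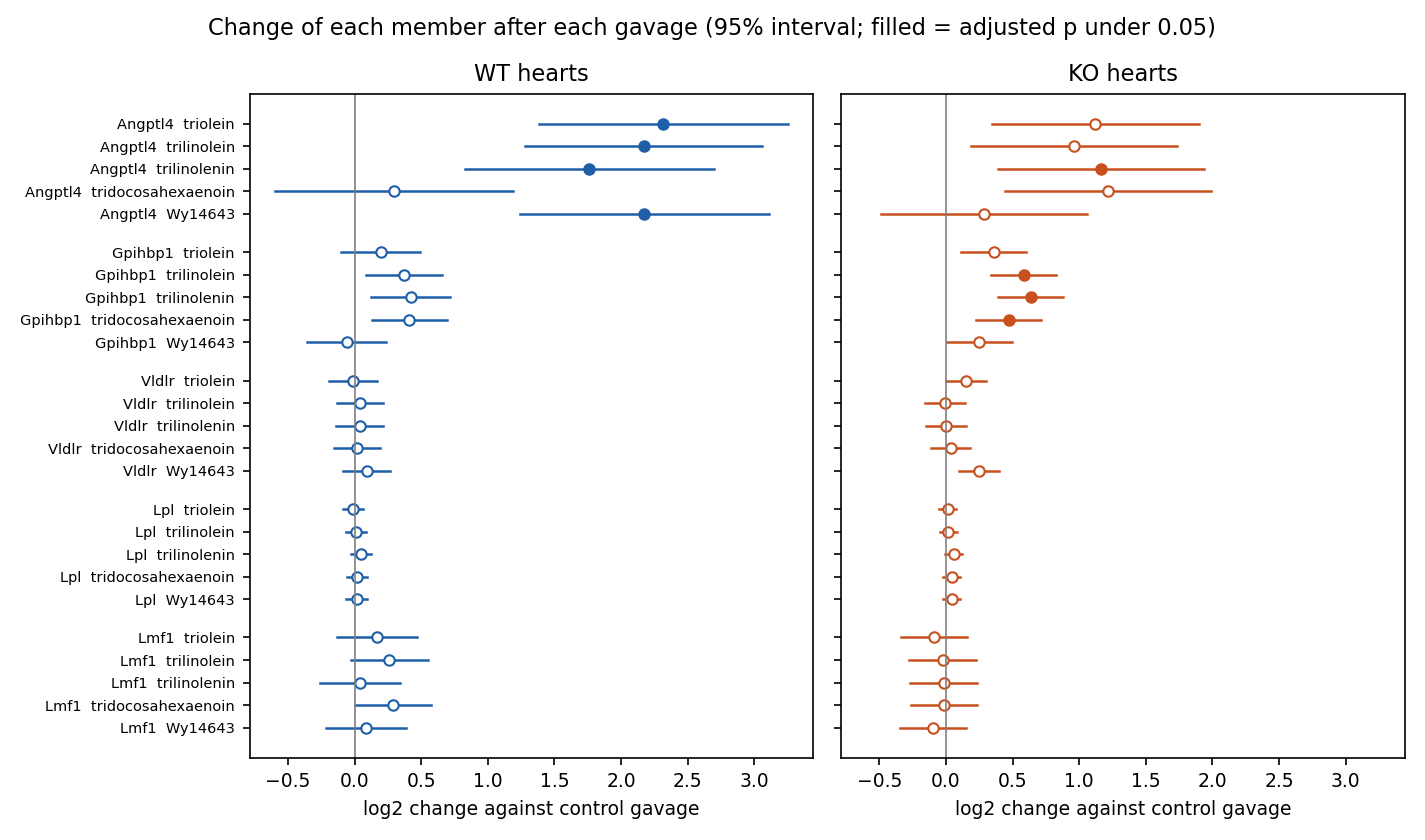
Log2 change of each member against control (horizontal axis) after each gavage (rows), in WT hearts (left) and KO hearts (right). Points are estimates, lines are 95% intervals from limma, and filled points have an adjusted p under 0.05. Filled points stand at Angptl4 after 4 gavages in WT and 1 in KO hearts, and at Gpihbp1 after 3 oils in KO hearts.

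Lpl, the lipase itself, varied little. Its main probe set read 13.51 to 13.71 over all 55 hearts, and its 12 group means spanned 0.07. WT control hearts lay between 13.57 and 13.63, and KO control hearts between 13.53 and 13.61. The 35 comparisons gave differences from -0.03 to 0.06, none was called, and the lowest adjusted p was 0.242. The second Lpl probe set read 12.73 to 13.03 and was not tested by itself. With the mean of both probe sets 0 of 35 comparisons were called. The highest value in the whole table was 14.87, so these signals stand near the top of the scale. Whether differences are compressed there was not tested.

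Lmf1, needed for folding of the lipase, read 4.84 to 5.75 over the 55 hearts. Its WT control hearts lay between 5.11 and 5.18, and its WT tridocosahexaenoin hearts between 5.06 and 5.75. No comparison was called among 35, with differences from -0.30 to 0.29 and a lowest adjusted p of 0.338. The 95% intervals in the plot of changes against control are wider for Lmf1 than for Lpl. The second Lmf1 probe set did not reach the brightness minimum on any array.

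Gpihbp1, the endothelial carrier of the lipase, read 10.13, 9.97, 9.92, 9.84 and 10.16 in KO control hearts. After trilinolein the KO hearts read 10.74, 10.39, 10.43, 10.95 and 10.42, after trilinolenin 10.49, 10.88, 10.45, 10.43 and 10.95, and after tridocosahexaenoin 10.24, 10.39, 10.44, 10.41 and 10.88. All 15 hearts lay above every KO control heart. Gpihbp1 rose by 0.58 ± 0.12 after trilinolein (1.50-fold, adjusted p = 0.00381) and by 0.64 ± 0.12 after trilinolenin (1.56-fold, adjusted p = 0.000422). Tridocosahexaenoin raised it by 0.47 ± 0.12 (1.39-fold, adjusted p = 0.0212). The last call was lost without KO control replicate 3 or 4 or tridocosahexaenoin replicate 5 (adjusted p = 0.0679, 0.0598 and 0.156), while the other 2 held in each such fit. Of all tested genes, 4.32% were called after trilinolein in KO hearts, 11.9% after trilinolenin and 3.54% after tridocosahexaenoin.

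After triolein the KO hearts read 10.40, 9.99, 10.42, 10.32 and 10.68 for Gpihbp1, of which 4 of 5 lay above all controls. The difference of 0.36 ± 0.12 (adjusted p = 0.135) was not called. Averaged over the 4 oils the rise in KO hearts was 0.51 ± 0.10 (1.43-fold, adjusted p = 0.000433), where 9.8% of genes were called. Wy14643 gave 10.15, 10.26, 10.38, 10.47 and 10.01, a difference of 0.25 ± 0.12 (adjusted p = 0.49).

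WT control hearts read 9.75, 9.71 and 10.00 for Gpihbp1. Triolein gave 10.08, 9.88, 10.01 and 10.11, trilinolein 10.23, 10.37, 10.00, 10.23 and 10.14, trilinolenin 10.15, 10.30, 10.32 and 10.21, and tridocosahexaenoin 10.22, 10.13, 10.42, 10.04 and 10.35. All hearts given trilinolenin or tridocosahexaenoin lay above the controls. The Gpihbp1 differences were 0.20 ± 0.15, 0.37 ± 0.14, 0.42 ± 0.15 and 0.41 ± 0.14 in that order, and none was called (adjusted p = 0.885, 0.204, 0.104 and 0.123). With array weights the last 2 were called (adjusted p = 0.034 and 0.0238). The average over the oils was 0.35 ± 0.12 (adjusted p = 0.127). Wy14643 gave 9.47, 10.04, 9.69 and 9.86, a difference of -0.06 ± 0.15 (adjusted p = 0.963) that turned sign without WT control replicate 3 or Wy14643 replicate 1.

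A difference between the genotypes in the Gpihbp1 response was not called for any gavage. The estimates lay between 0.06 (tridocosahexaenoin) and 0.31 (Wy14643). For the average over the oils, added after the values were seen, it was 0.16 ± 0.15 (adjusted p = 0.997, 95% interval -0.15 to 0.47). The calls in KO and not in WT hearts therefore do not show that the responses differ. Nor was Gpihbp1 called in any of the 12 oil pairs, where differences lay between -0.17 and 0.28, between 0% and 1.01% of genes were called, and the interval of the widest pair was 0.03 to 0.52 (KO trilinolenin against triolein, adjusted p = 0.287).

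Gpihbp1 was higher in KO than in WT hearts under Wy14643 (0.49 ± 0.13, adjusted p = 0.00865), trilinolenin (0.40 ± 0.13, adjusted p = 0.0407) and trilinolein (0.39 ± 0.12, adjusted p = 0.0283). All 5 KO hearts lay above all WT hearts under both oils, and 4 of 5 under Wy14643. The trilinolein call was lost without WT replicate 3 or 5 or KO replicate 1 or 4 of that oil (adjusted p up to 0.132). The trilinolenin call was lost without any of its 4 WT hearts or without KO replicate 2 or 5 (adjusted p up to 0.143), and the Wy14643 call without WT replicate 1 (adjusted p = 0.0765). Control hearts differed by 0.18 ± 0.14 (adjusted p = 0.678). Of all tested genes, 9.28%, 9.54% and 9.63% were called between genotypes under Wy14643, trilinolenin and trilinolein, and 3.62% between control hearts. Averaged over the 6 gavages, a comparison added after the values were seen, Gpihbp1 differed by 0.34 ± 0.05 (1.27-fold, adjusted p = 6.69e-07). In that comparison 39% of genes were called.

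Endothelial markers were read beside Gpihbp1, since it is made by capillary endothelium. The summed linear signal of 10 endothelial markers ranged from 2410 to 2940 in KO control hearts, 2660 to 2970 after trilinolein, 2720 to 2880 after trilinolenin and 2570 to 3140 after tridocosahexaenoin, so the groups overlapped. Of the 10 tested markers 1, the junction gene Esam, was called and rose over the 4 oils in KO hearts (0.36 ± 0.08, adjusted p = 0.00275), and the median of the list was -0.12 against -0.01 for all tested genes. Of all tested genes 9.8% were called in this comparison, so 1 of 10 is near that share. After trilinolenin in KO hearts, where the Gpihbp1 rise was largest, Esam rose by 0.54 ± 0.10 (adjusted p = 0.000459). The VEGF receptor gene Kdr fell there, with a difference of -0.61 ± 0.20 (adjusted p = 0.0393), as did the endomucin gene Emcn (-0.39 ± 0.12, adjusted p = 0.0309). The other 7 markers were not called, and of all tested genes 11.9% were. Kdr also fell after trilinolenin in WT hearts (-0.85 ± 0.24, adjusted p = 0.0376, 3.41% of genes called). Outside the endothelial list, over the 4 oils in KO hearts, the macrophage gene Cd163 rose (0.64 ± 0.14) as 1 of 8 tested macrophage markers, and the collagen genes Col1a1 (-0.68 ± 0.16) and Col3a1 (-0.71 ± 0.16) fell as 2 of 7 fibroblast markers. These counts stand beside the same 9.8% of all tested genes. Within groups, the deviations of Gpihbp1 and of the endothelial sum from their group means correlated at r = 0.418 over 55 hearts. Those of Angptl4 and the endothelial sum correlated at r = 0.385. For Gpihbp1 and a sum of 3 liver genes, of which 0 were bright enough to be tested, r was higher, at 0.483.

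Gpihbp1 was called higher in KO than in WT hearts under 3 gavages, and the endothelial sum was read in the same groups. Under Wy14643 it was 2350 to 2710 in KO and 2430 to 2680 in WT hearts, and 0 of 10 markers were called. Under trilinolein it was 2660 to 2970 in KO hearts (median 2850) and 2610 to 2720 in WT hearts (median 2690), again with 0 of 10 called. Under trilinolenin it was 2720 to 2880 in KO hearts (median 2850) and 2500 to 2750 in WT hearts (median 2600). The ranges overlapped in each of the 3, and the medians were higher in KO hearts under both oils. Of the 10 markers 2 were called under trilinolenin, both higher in KO hearts, Kdr by 0.81 ± 0.21 (adjusted p = 0.00836) and Esam by 0.39 ± 0.11 (adjusted p = 0.0155). Of 5 tested smooth muscle markers Acta2, Cnn1, Myh11 and Tagln were called higher in KO hearts there too, by 0.57 to 1.13. Cnn1 (1.13) passed the brightness minimum on only 14 arrays. Under Wy14643 Mrc1, C1qb and Cd68 of 8 macrophage markers were called higher, and Pdgfra and Dpt of 7 fibroblast markers lower. Under trilinolein Mrc1 and the smooth muscle gene Smtn were called higher, and under both Mybpc3 of 7 cardiomyocyte markers. Of all tested genes 9.54% were called under trilinolenin, 9.28% under Wy14643 and 9.63% under trilinolein. The part of endothelial and other cell shares in the Gpihbp1 results was not tested.

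**Figure D3:**
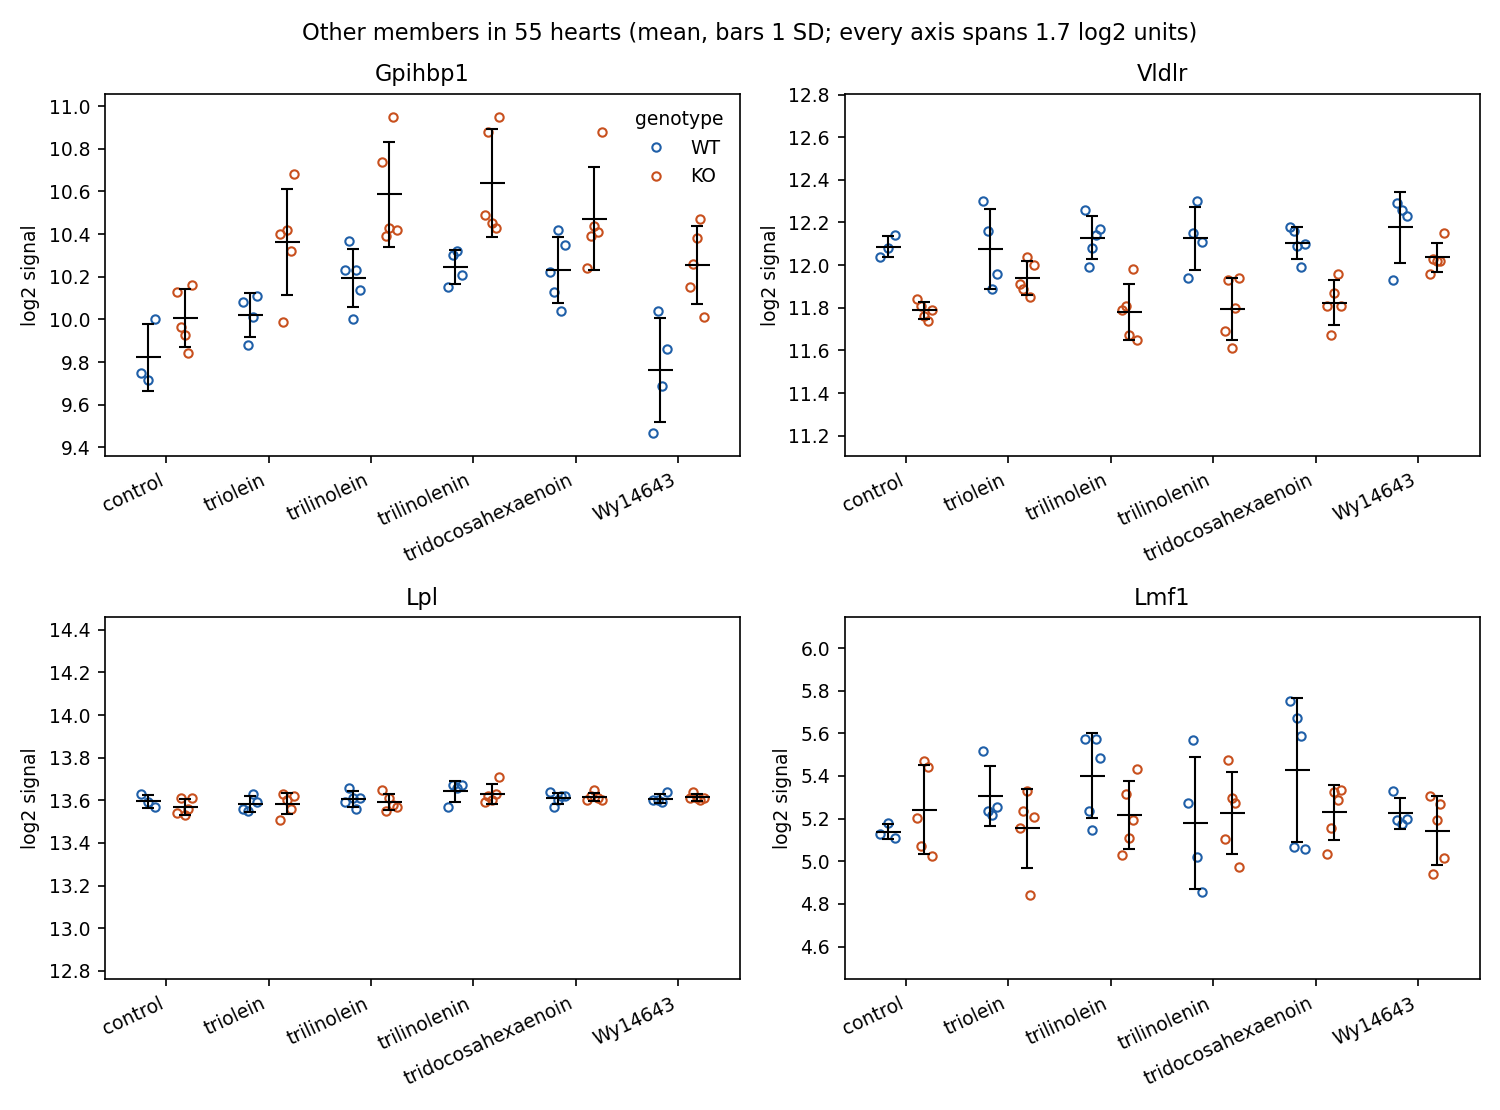
Log2 signal (vertical axes, each spanning 1.7 units) of Gpihbp1, Vldlr, Lpl and Lmf1 in each heart, by gavage and genotype (blue WT, orange KO). Open circles are hearts, the long dash is the group mean and the bars are 1 SD. Gpihbp1 in all KO hearts given trilinolein, trilinolenin or tridocosahexaenoin lies above the KO controls, Vldlr lies lower in KO control hearts (11.74 to 11.84) than in WT control hearts (12.04 to 12.14), and Lpl stays between 13.51 and 13.71.

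Vldlr, the receptor for triglyceride-rich particles, was called lower in KO than in WT hearts under 4 of the 6 gavages. WT control hearts read 12.04, 12.08 and 12.14, and KO control hearts lay between 11.74 and 11.84. The difference was -0.30 ± 0.09 (0.813-fold, adjusted p = 0.0325), and it was lost without any of the 3 WT controls or without KO control replicate 3, 4 or 5 (adjusted p from 0.0515 to 0.171). Under trilinolein Vldlr differed by -0.35 ± 0.07 (adjusted p = 0.000879), under trilinolenin by -0.33 ± 0.08 (adjusted p = 0.00273) and under tridocosahexaenoin by -0.28 ± 0.07 (adjusted p = 0.00811). In these 4 comparisons all 5 KO hearts lay below every WT heart, and the 3 oil calls held in each fit without 1 array. Under triolein and Wy14643 the differences were -0.14 ± 0.08 and -0.14 ± 0.08 (adjusted p = 0.341 and 0.295). Of all tested genes, 3.62% were called between control genotypes, and 9.63%, 9.54% and 9.57% under trilinolein, trilinolenin and tridocosahexaenoin. Under triolein and Wy14643 these shares were 7.93% and 9.28%.

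The other 5 Vldlr probe sets all gave lower group means in KO hearts under every gavage. Under triolein 4 of them were called lower, at -0.27 to -0.50, and the remaining one differed by -0.19 (adjusted p = 0.197). Under Wy14643 all 5 were called, at -0.32 to -0.83. On the probe set that separates the genotypes most, 28 of 30 KO hearts lay below every WT heart, and on the main one 18 of 30. Averaged over the 6 gavages, a comparison added after the values were seen, the main probe set differed by -0.26 ± 0.03 (adjusted p = 5.45e-09). In that comparison 39% of genes were called. The suffix of the main probe set (x_at) marks probes that may also match other transcripts, while 3 of the other 5 carry the plain suffix (at).

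Vldlr was not called against control after any gavage. In KO hearts Wy14643 gave 11.96 to 12.15, all 5 above the KO controls, a difference of 0.25 ± 0.07 (adjusted p = 0.188), and triolein 11.85 to 12.04, a difference of 0.15 ± 0.07 (adjusted p = 0.333). In WT hearts the 5 gavages differed from control by -0.01 to 0.09.

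Within groups, the hearts with high Angptl4 also had high levels of other fat-responsive genes. The deviation of each heart from its group mean was used, so differences between group means play no part. Groups of wider spread still weigh more in r. The SD of Angptl4 ran from 0.22 in KO Wy14643 to 0.94 in WT tridocosahexaenoin hearts. Angptl4 correlated with Pdk4 at Pearson r = 0.74 and Spearman rho = 0.704, with Ucp3 at r = 0.703 and rho = 0.714, and with Acot1 at r = 0.564 and rho = 0.493, over 55 hearts. A permutation test within groups (two-sided, 100000 draws) gave p = 1e-05, the smallest it can give, for Pdk4 and Ucp3 by both measures, and 9e-05 and 0.00082 for Acot1. Adjusted over the 6 relations computed by each measure (Angptl4 and Gpihbp1, each with the 3 genes), these became 3e-05 for Pdk4 and Ucp3, and 0.00013 and 0.0012 for Acot1. Without the 2 hearts farthest from the median, r was 0.718, 0.689 and 0.495 for Pdk4, Ucp3 and Acot1. In WT hearts alone r was 0.691, 0.783 and 0.653, and in KO hearts alone 0.821, 0.59 and 0.589. Pdk4 passed the brightness minimum on all 55 arrays, Acot1 on 40 and Ucp3 on 33. Every KO group mean of Ucp3, from 3.87 (Wy14643) to 4.24 (triolein), lay below that minimum. So did the Acot1 means of KO control, trilinolein and trilinolenin hearts (4.12, 4.17 and 4.2). The KO and pooled r of Ucp3 and Acot1 therefore rest in part on dim signals.

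Gpihbp1 correlated with Pdk4 at r = 0.549 and rho = 0.52 (permutation p = 2e-05 and 0.00023, adjusted 4e-05 and 0.00046). With Ucp3 it gave r = 0.356 and rho = 0.349 (permutation p = 0.015 and 0.02, adjusted 0.018 and 0.024), and with Acot1 r = 0.33 and rho = 0.25 (permutation p = 0.047 and 0.099). Without the 2 farthest hearts these r were 0.471, 0.271 and 0.214. For Pdk4, Ucp3 and Acot1 in that order, r was 0.371, 0.155 and 0.222 in WT hearts alone. In KO hearts alone r was 0.708, 0.522 and 0.367, so the pooled r with Pdk4 and Ucp3 rest more on KO hearts. The dim Ucp3 and Acot1 signals of KO hearts enter the r of Gpihbp1 with these genes too. Deviations of Angptl4 and Gpihbp1 themselves correlated at r = 0.278. Of all tested genes, 5.8% had an absolute r over 0.5 with Gpihbp1 and 0.583% with Angptl4. An r of this size is therefore less particular for Gpihbp1. The points share array, dissection and RNA preparation, and the part of these was not tested.

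Of all tested genes, the 5 whose deviations were most like those of Angptl4 were Fabp4 (r = 0.763), Pdk4 (0.74), Plin2 (0.733), Gm26588 (0.712) and Ucp3 (0.703). Fabp4 is a fatty acid binding protein of endothelium and fat cells, and Plin2 coats lipid droplets. For Gpihbp1 they were Plin4 (r = 0.818), Xdh (0.79), Slc43a3 (0.788), Herpud1 (0.781) and Map3k6 (0.773). These are descriptions over 55 hearts. By the 12 group means, the genes most like Angptl4 were Fbln1 (r = 0.906), Pla2g6 (0.86), Cdk10 (0.843), Eftud2 (0.839) and Sec24b (0.811), and 0 of 5 were the same. For Gpihbp1 the group means gave Car4, a carbonic anhydrase of capillary endothelium (r = 0.978), with 2610301B20Rik (0.97), Cldn15 (0.955), Ctla2b (0.954) and Ift22 (0.95), again with 0 of 5 shared. Vldlr was most like Kcnv2 (0.937), Slmap (0.933), Rock1 (0.928), Dock8 (0.913) and Hadhb (0.912) by group means.

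**Figure D4:**
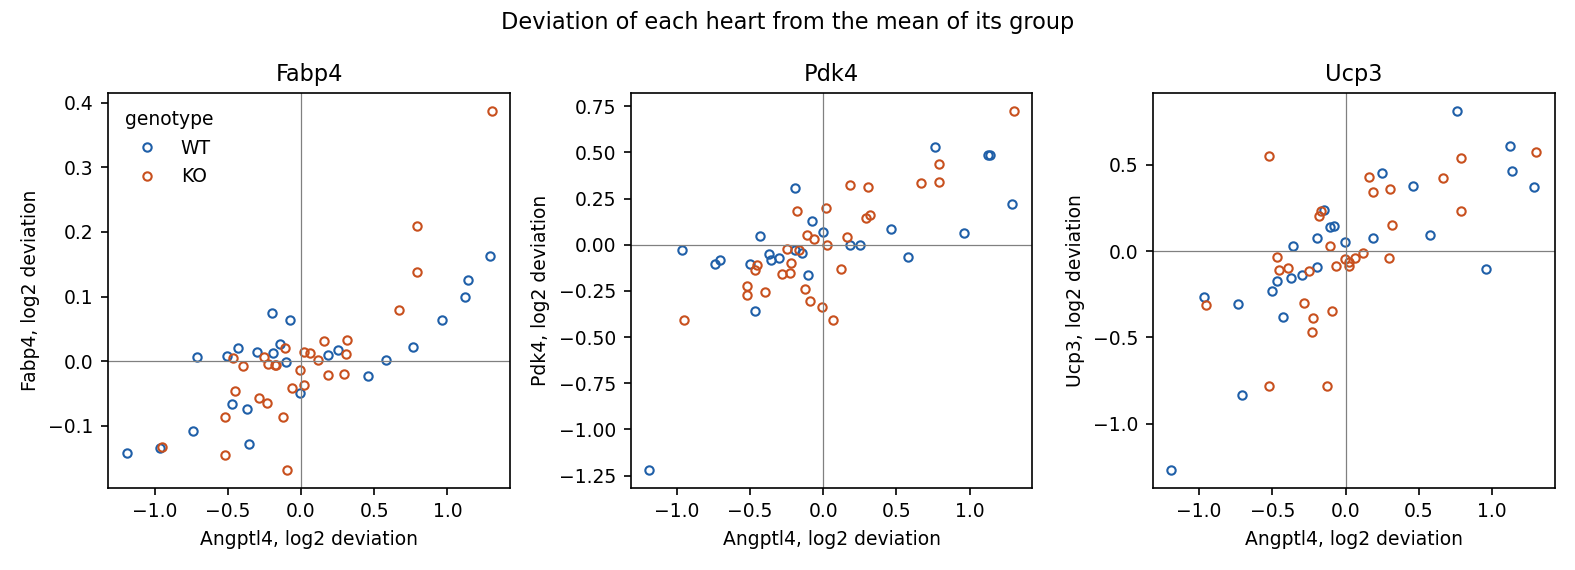
Deviation of each heart from the mean of its own group for Angptl4 (horizontal axes, log2) against Fabp4, Pdk4 and Ucp3 (vertical axes, log2), blue WT and orange KO. Each point is 1 of 55 hearts, and the grey lines mark no deviation. Hearts high in Angptl4 lie high in the other genes, with r = 0.763, 0.74 and 0.703. The KO group means of Ucp3 all lie below the brightness minimum.

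Other genes of the pathway were counted from lists by role. Over the 4 oils 0.486% of tested genes rose and 0.716% fell in WT hearts, while 4.27% rose and 5.52% fell in KO hearts. Between control genotypes 1.55% of genes were higher and 2.06% lower in KO hearts. Wy14643 had 0.0607% of genes called in WT and 0.0728% in KO hearts. Of 13 lipases and plasma regulators only Apoe and Pltp were tested, and neither was called over the 4 oils in WT or KO hearts, after Wy14643, or between control genotypes. Among 15 tested genes of lipase folding, cleavage and surface binding, 1 rose over the oils in KO hearts, the protease gene Furin (0.31 ± 0.10, adjusted p = 0.0373), and 0 in WT hearts. Furin is a proprotein convertase that can cleave both Angptl4 and the lipase. Of 4 tested lipoprotein receptors other than Vldlr 0 were called in the same comparisons. Between genotypes under the gavages, Sorl1, a sorting receptor, was higher in KO hearts after trilinolein (0.55 ± 0.11), trilinolenin (0.45 ± 0.12) and Wy14643 (0.54 ± 0.12), while Vldlr differed there by -0.35, -0.33 and -0.14. Sort1, the sortilin gene of the folding and cleavage list, was higher in KO hearts under triolein (0.35 ± 0.10), trilinolenin (0.34 ± 0.10) and tridocosahexaenoin (0.50 ± 0.09), and the heparan sulfate proteoglycan gene Sdc4 under tridocosahexaenoin (0.72 ± 0.23). Apoe was lower in KO hearts under Wy14643 (-0.33 ± 0.10, adjusted p = 0.0237).

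In fatty acid uptake and binding, 2 of 9 genes rose over the oils in KO hearts, Fabp4 (0.21 ± 0.05, adjusted p = 0.00939) and the fatty acid transporter gene Cd36 (0.14 ± 0.04, adjusted p = 0.0332). The endothelial transcription factor gene Meox2 fell, with a difference of -0.47 ± 0.12 (adjusted p = 0.00952). In WT hearts 0 of 9 were called. Between control genotypes Fabp4 was higher in KO (0.36 ± 0.08) and 3 of 9 were lower, Slc27a1 (-0.68 ± 0.14), Cd36 (-0.27 ± 0.06) and Fabp3 (-0.25 ± 0.04).

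Of the 7 lists, intracellular lipolysis had the largest share of called genes over the oils. In KO hearts 5 of 8 rose, led by Plin4 (0.59 ± 0.11), hormone-sensitive lipase Lipe (0.52 ± 0.11), Plin5 (0.43 ± 0.14) and Plin2 (0.29 ± 0.09), with a list median of 0.27 against -0.01 for all tested genes. In WT hearts 2 of 8 rose, Lipe (0.62 ± 0.14, adjusted p = 0.0173) and Plin4 (0.53 ± 0.13, adjusted p = 0.0295), with a median of 0.26 against -0.02. After Wy14643 0 of 8 were called in either genotype. That count is near the share of all tested genes called there, 0.0607% in WT and 0.0728% in KO hearts. It therefore does not set the list apart between oils and Wy14643.

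Of 13 tested PPAR responsive genes, 1 rose over the oils in WT hearts, Ucp3 (1.06 ± 0.27, adjusted p = 0.0305), and 1 in KO hearts, Pdk4 (0.87 ± 0.16, adjusted p = 0.000385). Between control genotypes 10 of 13 were lower in KO hearts, with a median of -0.93 against 0.01 for all tested genes. Angptl4, which is not on that list, had a difference of the other sign there (1.12, not called). Pdk4 rose in KO hearts after trilinolein (1.03 ± 0.20), trilinolenin (1.05 ± 0.20) and tridocosahexaenoin (0.77 ± 0.20, adjusted p = 0.0248), where Angptl4 differed by 0.96, 1.16 and 1.22.

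Among 10 receptors and other inputs to Angptl4, Pparg rose over the oils in KO hearts by 0.94 ± 0.20 (adjusted p = 0.00156). Another 3 fell there, with differences of -0.36 ± 0.09 for the glucocorticoid receptor gene Nr3c1, -0.28 ± 0.06 for Rxrg and -0.24 ± 0.07 for Hif1a. In WT hearts 0 of 10 were called over the oils.

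Markers of other cell types were read beside the Angptl4 result. Of 8 adipocyte markers 5 have a probe set, and their summed linear signal was 116 to 176 in WT control hearts and 143 to 232 after triolein, and 46.1 to 240 in KO control hearts against 163 to 602 after trilinolenin. Adipoq passed the brightness minimum on 1 array, and Retn, Lep and Cidec on 0, so the sum was nearly all Car3, which muscle also makes. The brown fat gene Ucp1 and the liver gene Alb passed on 0 arrays. The sum of 5 atrial muscle markers ranged from 6430 to 9360 in WT control hearts and from 14400 to 16200 in WT triolein hearts, all 4 above the controls. After trilinolein it was 4780 to 16800, after trilinolenin 5980 to 15200, after tridocosahexaenoin 5170 to 16300 and after Wy14643 6340 to 15000, all overlapping the controls. Within groups the deviations of Angptl4 and of the atrial sum correlated at r = 0.17, and those of Angptl4 and the adipocyte sum at r = 0.101. The sum of 9 macrophage markers was 1890 to 2000 in WT control hearts and 2040 to 2460 after trilinolein, all 5 above the controls. After the other WT gavages it overlapped the controls. Its deviations correlated with those of Angptl4 at r = -0.003. The part of atrial tissue in the triolein result and of macrophages in the trilinolein result was not tested.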

How the data were processed

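The deposited values are log2 signals from the authors' series table, made with GCRMA 2.2.0 per the submitters' processing notes. That method gives every array the same overall distribution, so a shift of all genes cannot be seen. The values were used as deposited. Of 45101 probe sets 34945 carried 1 gene symbol, 932 several and 9224 none. No genome build is given in the sources used here.

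limma 3.58.1 (R 4.3.3) fitted 12 group means, 43 residual and 3.255 prior degrees of freedom, with Benjamini-Hochberg adjustment over 8237 genes. The fit was tested on simulated data. Precision is limited by the array count, lowest in WT controls (3). The members, gene lists and comparisons were chosen with earlier results of these data known, so list counts are descriptions.

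Named genes are the 5 members, up to 4 called genes of largest change from each list, and the 5 genes most like a member by Pearson correlation of 12 group means. Those most like it by deviations within groups come from an alternative. Esam and the other marker genes called or given at their brightness counts, with Apoe and Pltp, were named after their values were seen. Alternatives were no filter, a filter at 100, the mean of a gene's probe sets, each other probe set, renewed quantile normalization, array weights (0.472 to 1.72), a trended robust prior, a replicate block, a fit of only the groups compared, and each array left out.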

Additional observations from a re-analysis of the deposited data

Results flagged for a closer look

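In groups of 4 or 5 hearts, 7 of 55 member and group combinations held a heart whose gap to the nearest other, divided by the range of the group, exceeded Dixon's 95% critical value. Chance gives about 1 in 20. For Angptl4 these were WT triolein replicate 3, at 9.461 against 7.853 to 8.023 for the other hearts, and KO control replicate 1, at 7.787 against 6.869 to 7.114. For Lpl they were WT trilinolenin replicate 1 at 13.57 and KO Wy14643 replicate 2 at 13.64. For Lmf1 they were WT triolein replicate 1 at 5.515 and WT Wy14643 replicate 1 at 5.331, and for Vldlr WT Wy14643 replicate 1 at 11.93. WT Wy14643 replicate 1 stands apart for both Lmf1 and Vldlr, and without it the Gpihbp1 difference between genotypes under Wy14643 was not called.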

How the results depend on the processing

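Apart from left-out arrays, 466 of 502 values under an alternative kept their direction and their side of the threshold, 17 lost a call, 18 gained one and 1 turned sign. With 1 array left out, 775 of 834 did, 45 lost a call, 5 gained one and 9 turned sign. For Lpl and Lmf1 0 of 35 comparisons were called under any of them that gave a count. Lmf1 lies near the brightness minimum and Lpl near the top of the scale, and the second Angptl4 probe set is below the minimum on all arrays. The cause of the changes below was not tested.

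With only the groups compared in the fit, fewer arrays estimate the spread. Angptl4 then kept its WT differences from control of 2.32 (triolein, adjusted p = 0.16), 1.76 (trilinolenin, 0.11), 2.17 (Wy14643, 0.128) and 1.64 (mean of oils, 0.0883), and those of tridocosahexaenoin from triolein (-2.02, 0.232) and trilinolein (-1.87, 0.128), but was not called. It was called for triolein in KO hearts (1.12, 0.0449) and between genotypes under Wy14643 (-0.77, 0.031). Without the filter Angptl4 missed the threshold for WT Wy14643 (2.17, 0.0538) and KO trilinolenin (1.16, 0.0659). With the mean of its probe sets, one of which is dim on all arrays, WT Wy14643 gave 1.11 (0.0587).

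Array weights called Gpihbp1 in 11 of 35 comparisons in place of 7, adding WT trilinolenin (0.44, adjusted p = 0.034), WT tridocosahexaenoin (0.44, 0.0238), KO triolein (0.37, 0.0342) and the WT mean of oils (0.37, 0.0286). They turned WT Wy14643 to 0.021. With only the groups compared, Gpihbp1 lost KO tridocosahexaenoin (0.47, 0.147) and the genotype differences under trilinolein (0.39, 0.0607) and trilinolenin (0.40, 0.0997), and gained the WT mean of oils (0.35, 0.0418). Without the filter it lost those genotype differences too (0.39, 0.0523, and 0.40, 0.0742).

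Vldlr lost the difference between control genotypes without the filter (-0.30, adjusted p = 0.0715) and that under trilinolenin with only the groups compared (-0.33, 0.0826). Under triolein the mean of its probe sets (-0.30) and 4 other probe sets (-0.27, -0.29, -0.50 and -0.43) were called. Under Wy14643 the mean (-0.43) and all 5 others (-0.35, -0.32, -0.39, -0.57 and -0.83) were.

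Replicate numbers do not pair the samples: deviations of same-numbered arrays correlated at -0.234 to 0.231 over 40 pairs, 7 exceeded 0.1, and in 0 of 10 comparisons did all pairs. With the number as a replicate block, Gpihbp1 lost the genotype difference under trilinolenin (0.37, adjusted p = 0.0665).

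With 1 array left out, Angptl4 was called in 5 to 11 of 35 comparisons, 5 without WT control replicate 3. Its WT differences from control ranged from 1.94 to 2.55 (triolein), 1.81 to 2.41 (trilinolein), 1.33 to 2.01 (trilinolenin), -0.0574 to 0.59 (tridocosahexaenoin), 1.82 to 2.40 (Wy14643) and 1.28 to 1.87 (mean of oils). In KO hearts they ranged from 0.97 to 1.33 (trilinolenin), 0.89 to 1.45 (tridocosahexaenoin) and 1.03 to 1.28 (mean of oils). Differences of Angptl4 between genotypes ranged from -0.24 to 0.30 (triolein) and -0.33 to 0.15 (trilinolein). Against triolein and trilinolenin, WT tridocosahexaenoin ranged from -2.30 to -1.64 and -1.74 to -1.03, KO tridocosahexaenoin against the mean of the other oils from -0.19 to 0.37, and the genotype difference of this contrast from 1.59 to 2.2. Gpihbp1 ranged from -0.15 to 0.04 (WT Wy14643), 0.37 to 0.53 (KO tridocosahexaenoin), and between genotypes from 0.26 to 0.44 (triolein), 0.30 to 0.44 (trilinolein), 0.32 to 0.45 (trilinolenin) and 0.39 to 0.58 (Wy14643). Vldlr ranged from -0.32 to -0.27 between control genotypes.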
